A study of Mus musculus with 3 samples.

Results

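The genes of the zona pellucida and of the maternal stores of the oocyte were followed in E14.5 male gonads of the mouse. The set held 10 genes, Zp1, Zp2, Zp3, Gdf9, Bmp15, Nlrp5, Ooep, Oog1, Padi6 and Npm2, out of 19532 named genes on the array. It was chosen by gene symbol, with every array probe annotated to these symbols, which gave 12 of 41174 probes. Zp2 and Zp3 had 2 probes each and the other 8 genes had 1. The control gonads were heterozygous for both targeted genes, Nanos2+/- Stra8+/-. The Nanos2-null gonads were Nanos2-/- Stra8+/-, and a further group was labelled Nanos2-/- Stra8-/-. All 3 groups therefore carried at least 1 disrupted copy of each gene, and no wild-type gonad was among them. RNA was taken from the entire gonad, which mixes germ and somatic cells, and fewer cells of a type cannot be told apart from less RNA per cell. The design text speaks of biological duplicates, but each genotype was given here as 1 column of values whose title names replicates 1 and 2. There is therefore no replicate check and no error estimate, and no difference below was tested.

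The zona pellucida is the glycoprotein coat of the egg. In the mouse it is built from ZP1, ZP2 and ZP3, which growing oocytes make. GDF9 and BMP15 are ligands of the TGF-beta family that oocytes secrete to the granulosa cells around them. NLRP5 (also called MATER), OOEP and PADI6 belong to the subcortical maternal complex and cytoplasmic lattices of the oocyte, which embryos need for their earliest cleavages. NPM2 is the nucleoplasmin of the egg, a histone chaperone, and OOG1 is a leucine-rich repeat protein of oocytes. NANOS2 is an RNA-binding protein of fetal male germ cells that holds back the female programme, and STRA8 is needed for entry into meiosis.

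The promoters of the members whose values differed most are shown with that of Zp3, whose gene is the textbook target of FIGLA. They are the 250 bases before the transcription start, from RefSeq on the mouse build GRCm38.p6, written 5′ to 3′ on the strand of the gene. Capitals mark TAATTG or TAATTA, the homeobox element of the kind bound by NOBOX, and the CACCTG form of the E-box CANNTG, the motif bound by FIGLA and other bHLH factors. Each motif was searched on both strands, so CAATTA and CAGGTG count as matches.
Ooep, chr9:78378589-78378838, minus strand: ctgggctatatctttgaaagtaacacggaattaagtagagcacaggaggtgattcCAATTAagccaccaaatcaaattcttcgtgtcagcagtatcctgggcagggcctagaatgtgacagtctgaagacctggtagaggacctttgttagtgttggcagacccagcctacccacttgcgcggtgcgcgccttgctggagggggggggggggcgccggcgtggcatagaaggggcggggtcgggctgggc
Nlrp5, chr7:23385639-23385888, plus strand: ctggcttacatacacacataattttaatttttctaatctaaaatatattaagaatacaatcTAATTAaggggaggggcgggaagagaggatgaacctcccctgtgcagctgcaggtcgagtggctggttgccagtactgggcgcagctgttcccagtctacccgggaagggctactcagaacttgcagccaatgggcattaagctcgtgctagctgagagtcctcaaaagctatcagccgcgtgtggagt
Padi6, chr4:140742644-140742893, minus strand: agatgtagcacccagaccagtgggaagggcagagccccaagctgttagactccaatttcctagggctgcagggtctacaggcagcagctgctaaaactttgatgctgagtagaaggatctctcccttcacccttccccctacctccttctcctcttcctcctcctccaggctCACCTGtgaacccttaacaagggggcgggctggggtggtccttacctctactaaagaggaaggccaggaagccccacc
Oog1, chr12:87602415-87602664, plus strand: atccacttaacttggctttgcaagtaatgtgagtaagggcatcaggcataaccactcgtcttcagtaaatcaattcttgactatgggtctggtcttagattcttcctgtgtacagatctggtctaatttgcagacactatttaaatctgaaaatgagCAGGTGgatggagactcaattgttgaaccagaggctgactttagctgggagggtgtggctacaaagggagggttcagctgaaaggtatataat
Zp3, chr5:135979855-135980104, plus strand: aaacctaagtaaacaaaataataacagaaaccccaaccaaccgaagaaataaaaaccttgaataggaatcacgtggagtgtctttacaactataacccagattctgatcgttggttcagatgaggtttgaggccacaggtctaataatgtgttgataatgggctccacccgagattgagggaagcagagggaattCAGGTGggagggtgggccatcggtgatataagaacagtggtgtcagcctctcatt
Of the 10 members, 6 had a promoter in the table, and Zp1, Zp2, Gdf9 and Npm2 were not matched. Nlrp5 had 2 starts, and the window shown is that of the outer start. The Ooep promoter held CAATTA from 195 to 190 bases before the start, and the Nlrp5 promoter held TAATTA from 189 to 184 bases before its start. Across 32851 promoter windows of the same length, 11.3% held TAATTG or TAATTA. The inner start of Nlrp5 held neither, while Bmp15, whose promoter is not shown, held TAATTA. The CACCTG form of the E-box was present in the windows of Padi6, Oog1 and Zp3, and in 17.2% of all windows. The Zp3 window also held the E-boxes CACGTG, from 181 to 176 bases before the start, and CAGATG, from 134 to 129. These are not in capitals, and the capitals do not show which E-box of Zp3 FIGLA binds. Any CANNTG E-box was present in all 7 member windows and in 66.2% of all windows. CANNTG includes CACCTG. A match describes letters and shows no binding.

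The values are deposited ratios on a linear scale, and most probes lay near 1. The divisor of each probe is unknown, so a value can be compared between columns for the same probe, but not between probes. The column medians over all array probes were 0.941 in the control gonads, 0.975 in the Nanos2-null gonads and 0.999 in those labelled Nanos2-/- Stra8-/-. The negative control probe had 0.352, 0.354 and 0.454 in the same order. It is another probe, so a value below it is only a possible sign of background. It is also no floor, as the lowest array probe of the control column had 0.0989. Nanos2 itself had 87.2, 0.364 and 0.397, so the targeted transcript was low in both columns labelled as null. Stra8 had 0.108, 1.13 and 1.34. It was thus not low in the column labelled Stra8-/-, and where its probe lies relative to the deleted part was not given in the sources used here. Directions drawn from that column rest on its label. Over all array probes, 2.51% were higher by 2-fold or more with Nanos2 loss and 3.09% were lower by as much, with a median log2 difference of 0.05. For the column labelled Nanos2-/- Stra8-/- against control the shares were 4.59% and 4.39%, with a median of 0.19. These comparisons share the control column.

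Ooep and Nlrp5 were the members higher than control by 2-fold or more in both Nanos2-null columns. The Ooep probe read 0.243 in the control gonads, 1.03 in the Nanos2-null gonads and 1.06 in those labelled Nanos2-/- Stra8-/-. The control value stood apart, and the other columns lay close together. Ooep was 4.22-fold higher with Nanos2 loss, a log2 difference of 2.08, and 4.35-fold higher where both genes were labelled as lost, at 2.12. The Nlrp5 probe had 0.332 in the control gonads, 0.985 in the Nanos2-null gonads and 1.18 in those labelled Nanos2-/- Stra8-/-. It was 2.97-fold and 3.57-fold higher, with log2 differences of 1.57 and 1.84. Both control values lay below the negative control probe of that column, 0.352, although the divisors differ. If they lay at background, these folds are lower bounds.

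These differences were large against the array as a whole, though not unique on it. With Nanos2 loss, 0.321% of all array probes had a log2 difference at least as high as that of Ooep, and 0.899% one at least as high as that of Nlrp5. In the column labelled Nanos2-/- Stra8-/- against control, the shares were 0.512% and 0.865%. Both comparisons use the same control value of each probe, so they are not independent of each other.

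**Figure D1:**
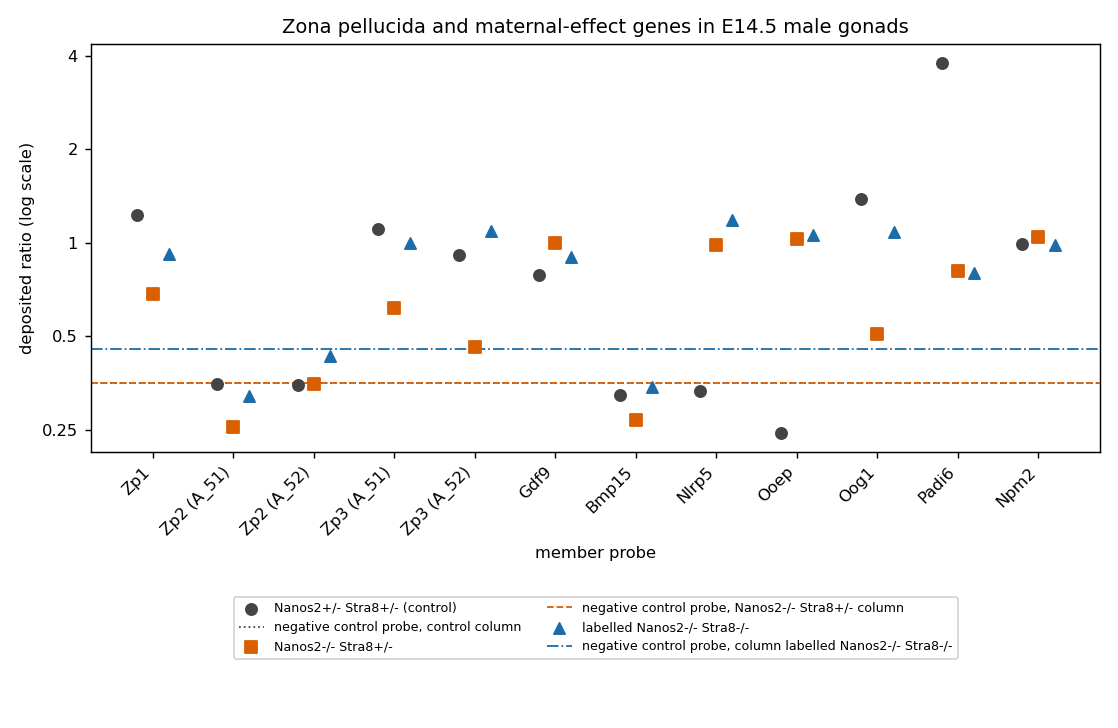
Deposited ratio (vertical axis, log scale) of the 12 member probes (horizontal axis) in the control column (circles), the Nanos2-/- Stra8+/- column (squares) and the column labelled Nanos2-/- Stra8-/- (triangles). Horizontal lines mark the negative control probe in each column, at 0.352, 0.354 and 0.454, of which the first pair overlap. Ooep and Nlrp5 have a low circle, Padi6 has a high circle at 3.80, and the Zp2 and Bmp15 probes lie at or below the lines in their columns.

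Padi6 went the other way. This gene encodes a peptidylarginine deiminase family protein of the oocyte lattices. Its probe had 3.80 in the control gonads, 0.808 in the Nanos2-null gonads and 0.799 in those labelled Nanos2-/- Stra8-/-. The control value was the high one, and the other columns differed by only 0.02 on the log2 scale. Padi6 was 4.71-fold lower with Nanos2 loss and 4.76-fold lower where both genes were labelled as lost, with log2 differences of -2.24 and -2.25. Of all array probes, 0.435% and 0.396% had differences at least as low. Ooep and Nlrp5 thus differed from control in the opposite direction to Padi6, although the 3 proteins are known from the same oocyte structures.

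The related genes of the oocyte lattice and NLRP family did not share a direction, and 5 of their 16 probes lay below 0.7 in all columns. Signal over background is unknown for those 5, which are counted in the shares and medians that follow. Of 16 probes for 13 such genes, with Nanos2 loss 0 were higher by 2-fold or more and 3 lower by as much. The lower share was 18.8%, against 3.09% of all array probes, of which 2.51% were higher. The median log2 difference was -0.27. In the column labelled Nanos2-/- Stra8-/- against control the counts were 2 and 2, each 12.5%, against 4.59% and 4.39% of all array probes. The median was 0.04. Khdc3 (FILIA), a partner of OOEP and NLRP5, had 0.664, 1.26 and 1.43, which gave log2 differences of 0.93 and 1.10 against control. Nlrp4f, another gene of this complex, had 4.49, 0.613 and 0.997 and was 7.33-fold and 4.51-fold lower. Nlrp14, a maternal-effect gene, had 1.14, 0.254 and 1.04, and was 4.51-fold lower in the Nanos2-null column only. Nlrp9b, an oocyte-enriched member of the NLRP family, was 2.03-fold and 2.45-fold lower. Nlrp14 at 0.254, and Nlrp9b at 0.319 in the column labelled Nanos2-/- Stra8-/-, lay below the negative control of their columns, although the divisors differ. If these values lay at background, the folds are lower bounds.

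Among paralogues of the members, Padi3, a deiminase known from hair follicles, had values like those of Padi6, at 3.94, 0.849 and 0.988. Its log2 differences were -2.21 and -2.00. The 3 probes of Padi4 had log2 differences of -0.26, -0.20 and -0.07 with Nanos2 loss. In the column labelled Nanos2-/- Stra8-/- they gave -1.50, -0.56 and -0.46, so 1 of the 3 passed 2-fold. That probe had 0.417 in this column, below the negative control of 0.454, although the divisors differ. If this value lay at background, the size of the difference is a lower bound. Gdf3, a TGF-beta family ligand of pluripotent cells, had 0.389, 1.10 and 1.15, with log2 differences of 1.50 and 1.57.

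Npm2 was flat across the columns. Its probe had 0.987 in the control gonads, 1.04 in the Nanos2-null gonads and 0.983 in those labelled Nanos2-/- Stra8-/-. Its log2 differences against control were 0.08 and -0.01, against a median of 0.05 and 0.19 over all array probes. Npm1, the widely expressed nucleolar paralogue, had log2 differences of 0.42 and 0.65 by 1 probe and 0.40 and 0.49 by the other.

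Zp1 and both probes of Zp3 were lowest in the Nanos2-null column. The Zp1 probe, for the protein that cross-links zona filaments, had 1.23 in the control gonads, 0.682 in the Nanos2-null gonads and 0.917 in those labelled Nanos2-/- Stra8-/-. The log2 differences against control were -0.85 and -0.42, both short of 2-fold. Zp3, which encodes a filament protein of the zona, had 1.10, 0.616 and 1.0 by the probe A_51_P152973, and 0.914, 0.460 and 1.09 by the probe A_52_P42762. Both probes of Zp3 were lower with Nanos2 loss, by log2 differences of -0.84 and -0.99, and both lay nearer to the control value in the column labelled Nanos2-/- Stra8-/-, at -0.14 and 0.25. The probe A_52_P42762 just missed 2-fold, and it passed with a log2 difference of -1.04 when each column was divided by its median.

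Zp2, the other filament protein gene, lay in a class of low values. Both of its probes, with that of Bmp15, were among 7552 probes (18.3%) below 0.7 in all 3 columns, a class to which the negative control probe would also belong. The probe A_51_P177304 had 0.349, 0.254 and 0.321, and the probe A_52_P331981 had 0.347, 0.350 and 0.432. Every one of these values lay at or below the negative control of its column. The probes of Zp2 disagreed with Nanos2 loss, at -0.46 and 0.01. The median over the low class was 0.06 with Nanos2 loss and 0.37 in the column labelled Nanos2-/- Stra8-/- against control. For Zp2 in the latter comparison the log2 differences were -0.12 and 0.32.

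The oocyte ligands showed no 2-fold difference in any comparison. The Gdf9 probe had 0.788 in the control gonads, 0.999 in the Nanos2-null gonads and 0.897 in those labelled Nanos2-/- Stra8-/-, with log2 differences of 0.34 and 0.19 against control. With Nanos2 loss, 12.8% of all probes had a difference at least as high. The Bmp15 probe had 0.322, 0.269 and 0.342, all below the negative control, with log2 differences of -0.26 and 0.09.

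The receptors, SMADs and granulosa cell targets of these ligands had shares past 2-fold not far from those of the array. Of 28 probes for 16 genes, with Nanos2 loss 1 was higher by 2-fold or more and 1 lower by as much, each 3.57% against 2.51% and 3.09% of all array probes, and the median log2 difference was 0.12. In the column labelled Nanos2-/- Stra8-/- against control the counts were 0 and 2, or 7.14% lower against 4.39% of all array probes, with a median of 0.34. The higher probe belonged to Bmpr2, the type II receptor of both ligands, at 2.33-fold, but the second Bmpr2 probe had a log2 difference of only 0.21. With the column labelled Nanos2-/- Stra8-/- the first probe was 4.19-fold lower than control and the second had 0.61. The lower probe belonged to Ptgs2, a cyclooxygenase induced in ovulatory granulosa cells, at 2.96-fold, while the second Ptgs2 probe had 0.03. Smad5, a mediator of BMP signals, had log2 differences of 0.64, 0.11 and 0.08 by its 3 probes with Nanos2 loss, and of 0.99, -0.73 and 0.21 by the same probes in the second comparison with control. Kitl, the granulosa cell ligand of KIT, had 0.49 and 0.20 by its 2 probes with Nanos2 loss. In the second comparison its probes went apart, at 0.57 and -1.47, and the latter was the other lower probe. The low values of Ptgs2 in the Nanos2-null column, 0.315, of Bmpr2, 0.239, and of Kitl, 0.372, lay below the negative control of their columns. The divisors differ, and only if these values lay at background are the folds lower bounds.

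Oog1 was below control in both Nanos2-null columns, and by 2-fold or more with Nanos2 loss alone. Its probe had 1.39 in the control gonads, 0.508 in the Nanos2-null gonads and 1.08 in those labelled Nanos2-/- Stra8-/-. It was 2.73-fold lower with Nanos2 loss, a log2 difference of -1.45, which 1.49% of all probes matched or exceeded downward. Where both genes were labelled as lost, the difference from control was -0.36. Oog1 belongs to a family of similar genes, and whether the probe also reads its relatives was not tested. The relative Oog4 had 0.261, 1.24 and 0.347, and was 4.74-fold higher with Nanos2 loss. Its values outside the Nanos2-null column lay below the negative control of their columns, although the divisors differ. If they lay at background, that fold is a lower bound and the order of those columns carries no meaning. Oog3 had 0.303, 0.311 and 0.385 and lay in the low class. Oog3 was named after its values were seen.

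Other maternal-effect and oocyte-enriched genes were mostly within 2-fold of control, though 11 of their 31 probes lay below 0.7 in all columns. For those 11 probes signal over background is unknown, so a small difference does not show an unchanged gene. Of 31 probes for 27 genes, with Nanos2 loss 1 was higher by 2-fold or more and 2 lower by as much. These were 3.23% and 6.45%, against 2.51% and 3.09% of all array probes, with a median log2 difference of 0.02. The counts for the column labelled Nanos2-/- Stra8-/- against control were also 1 and 2, with a median of 0.32. The median there was 0.19 over all array probes and 0.37 over the class below 0.7. Of all array probes, 4.59% were higher there and 4.39% lower. The higher probe was not the same in the 2 comparisons. With Nanos2 loss it was that of Oog4, which had a log2 difference of 0.41 in the second. In the second it was that of Btg4, which had 0.268, 0.261 and 1.05 and was 3.92-fold higher than control. The Btg4 values of 0.268 and 0.261 lay below the negative control of their columns, although the divisors differ. If they lay at background, that fold is a lower bound. Both lower probes belonged to oligoadenylate synthetase-like genes of the oocyte. Oas1d had 21.9, 0.983 and 0.641, and was 22.3-fold and 34.2-fold lower. Oas1e had 3.26, 0.880 and 0.999, and was 3.71-fold and 3.27-fold lower. Astl, which encodes the egg protease that cleaves ZP2, had log2 differences of -0.95 and -0.29, the same order of columns as Zp1.

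**Figure D2:**
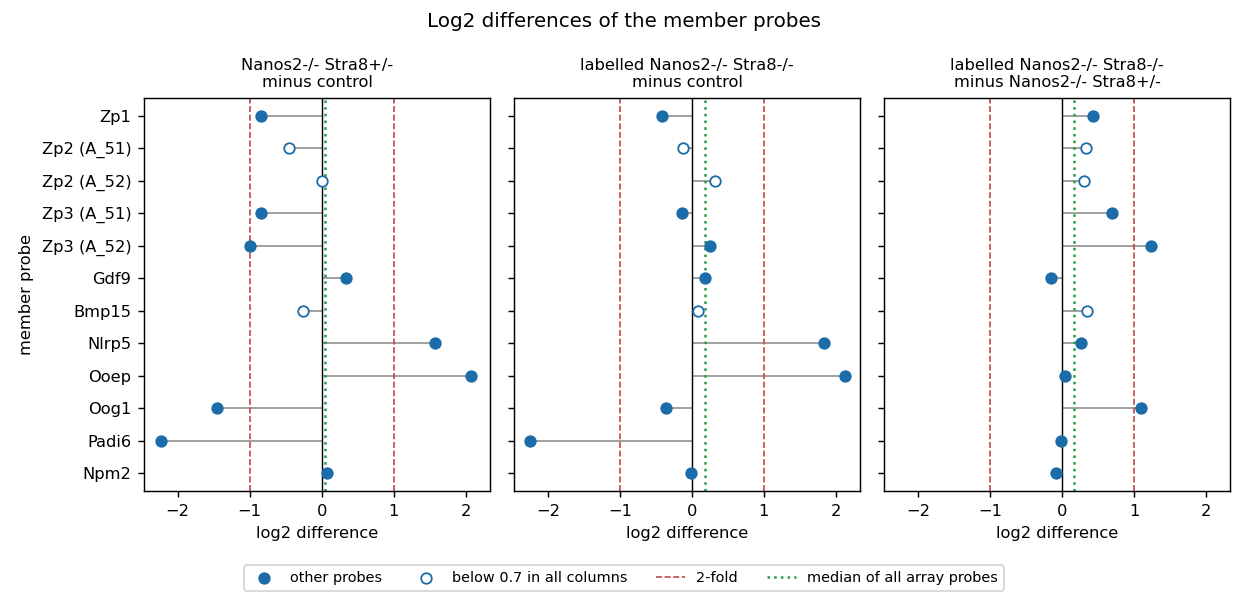
Log2 difference (horizontal axis) of each member probe (vertical axis) in the 3 comparisons, with broken lines at 2-fold, a dotted line at the median of all array probes, and open points for probes below 0.7 in all columns. Ooep and Nlrp5 lie to the right and Padi6 to the left in both comparisons with control, while Oog1 passes 2-fold downward only with Nanos2 loss.

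With Nanos2 loss, 2 of the 12 member probes were at least 2-fold higher, or 16.7%, against 2.51% of all array probes. Another 2 were at least 2-fold lower, against 3.09% of all array probes. The median over the member probes was -0.36, against 0.05 over all array probes, and -0.84 without probes below 0.7. With values raised to the negative control it was 0.0061, the difference of the negative control probe itself between these columns. Both Zp2 probes and Bmp15 took that value there, so this setting gives no direction, and the direction of the median is not settled. In the column labelled Nanos2-/- Stra8-/- against control, 2 were higher and 1 was lower (8.33%), against 4.59% and 4.39% of all array probes. The median of the members was 0.04 there, against 0.19 over all array probes, and -0.15 after quantile normalization. Members were thus found past 2-fold on both sides, and in neither comparison did they share a direction. The members were chosen with earlier results of these data known, so their shares beside those of the array are no test.

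**Figure D3:**
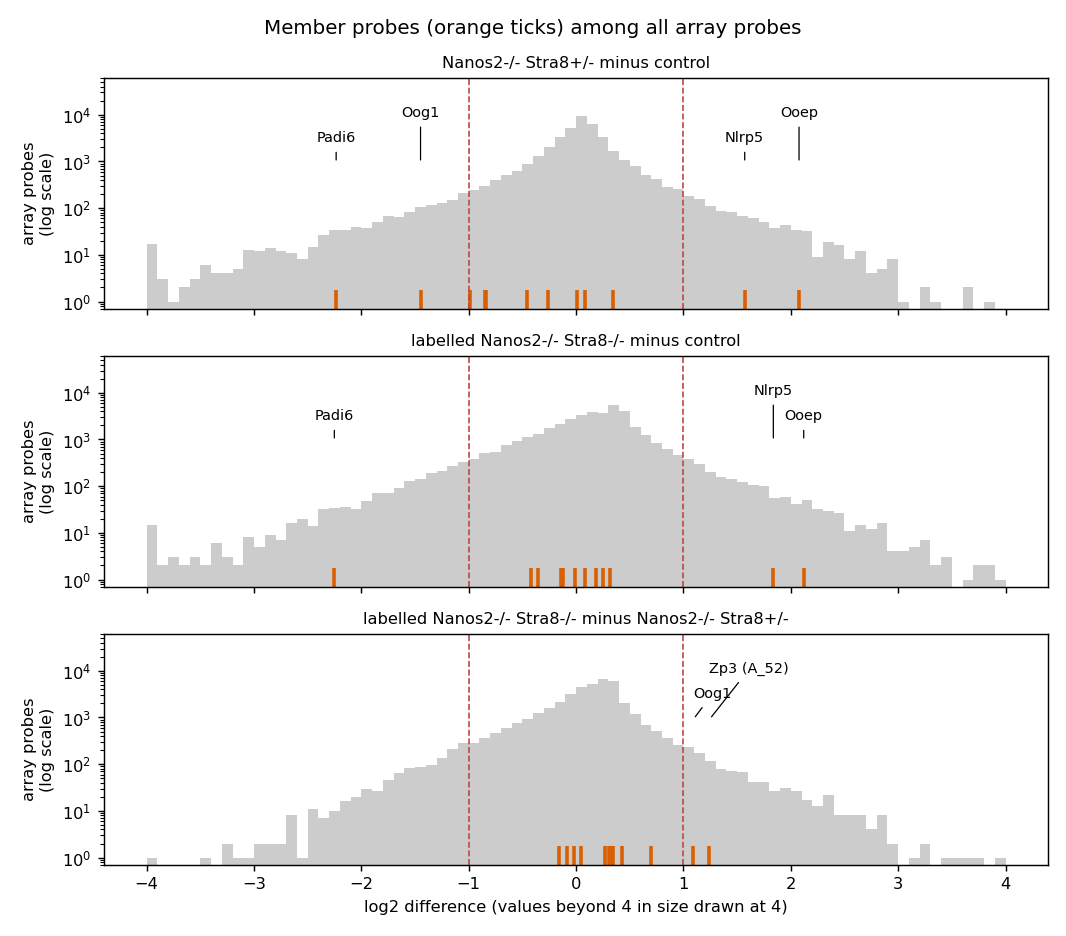
Number of array probes (vertical axis, log scale) at each log2 difference (horizontal axis) in the 3 comparisons, with the 12 member probes as orange ticks and those past 2-fold named. Ooep, Nlrp5, Padi6 and Oog1 lie in the tails with Nanos2 loss, which hold 2.51% of all probes on the higher side and 3.09% on the lower side.

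The third comparison set the column labelled Nanos2-/- Stra8-/- against the Nanos2-null column. Of the 12 member probes, 2 were at least 2-fold higher, against 2.44% of all array probes, and 0 were at least 2-fold lower, against 2.78%. The higher probes were 1 of the 2 for Zp3, at 2.36-fold by A_52_P42762, and that of Oog1, at 2.13-fold. The second Zp3 probe, A_51_P152973, was 1.62-fold higher, and with 1 value per gene Zp3 no longer passed 2-fold. With a pseudocount of 0.1 the log2 difference of Oog1 was 0.96, short of 2-fold. Zp3 and Oog1 each had their lowest value in the Nanos2-null column, which this comparison shares with the first. Ooep, Padi6 and Npm2 differed by 0.04, -0.02 and -0.09 on the log2 scale, and Nlrp5 by 0.27. The median over members was 0.32, against 0.16 over all array probes and 0.30 over the low class that holds Zp2 and Bmp15. Both Zp2 probes, at 0.34 and 0.31, and Bmp15, at 0.35, lay near that class median.

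By column, 6 of the 12 member probes were lowest in the Nanos2-null column, those of Zp1, Oog1 and Bmp15, both of Zp3 and 1 of Zp2. Another 4 were lowest in the control column, those of Gdf9, Nlrp5 and Ooep and 1 of Zp2. Padi6 and Npm2 were lowest in the column labelled Nanos2-/- Stra8-/-, though by little. The order of columns is a description, and for most members the neighbouring values differ by less than 2-fold.

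How well probes agree gives the only view of measurement spread in these data. Both probes of a gene are read from the same columns, so their agreement shows no spread between arrays or gonads. Over 5405 genes with exactly 2 probes, the log2 differences of the probes lay a median of 0.14 apart with Nanos2 loss, and 6.12% of genes had a gap above 1. Of 181 such genes with at least 1 probe 2-fold higher, 21 (11.6%) had both, and of 241 with at least 1 probe 2-fold lower, 44 (18.3%) had both. In the third comparison, 8 of 187 genes (4.28%) were 2-fold higher by both. Ooep, Nlrp5, Padi6 and Oog1 each had 1 probe, so none of their differences has this check. The probes of Zp3 were 0.15 apart with Nanos2 loss, and those of Zp2 were 0.47 apart.

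Among the genes that regulate early oocytes, every probe past 2-fold against control was on the higher side. Of 11 probes for 8 early oocyte regulators, with Nanos2 loss 3 were higher by 2-fold or more and 0 lower. The higher share was 27.3%, against 2.51% of all array probes, of which 3.09% were lower. The median log2 difference was 0.25. In the column labelled Nanos2-/- Stra8-/- against control, 4 were higher (36.4%) and 0 lower, against 4.59% and 4.39% of all array probes. The median was 0.39. This list was chosen with earlier results of these data known, so its shares are no test. Sohlh2, a bHLH factor of early oocytes and spermatogonia, had 0.215, 0.998 and 1.31, with log2 differences of 2.22 and 2.62. Sohlh1 had no probe in the annotation used. Lhx8, a LIM homeobox factor of oocytes, had 0.187, 0.850 and 1.80, and its probes gave log2 differences of 2.19 and 2.16 with Nanos2 loss. The control values of Sohlh2 and Lhx8 lay below the negative control of that column, 0.352, although the divisors differ. If these values lay at background, the differences are lower bounds.

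Figla, the bHLH factor required for zona gene expression, had 0.558, 0.929 and 1.50. It was 1.66-fold higher with Nanos2 loss and 2.68-fold higher in the gonads labelled Nanos2-/- Stra8-/-. Nobox, an oocyte homeobox factor known to act on Gdf9, had 0.710, 1.0 and 1.22, or 1.41-fold and 1.72-fold higher. Over the same columns, Zp1 and both probes of Zp3 were lower with Nanos2 loss and the Gdf9 probe had a log2 difference of 0.34. Foxo3, Tbpl2, Taf4b and Kit each stayed within 2-fold in both comparisons with control.

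**Figure D4:**
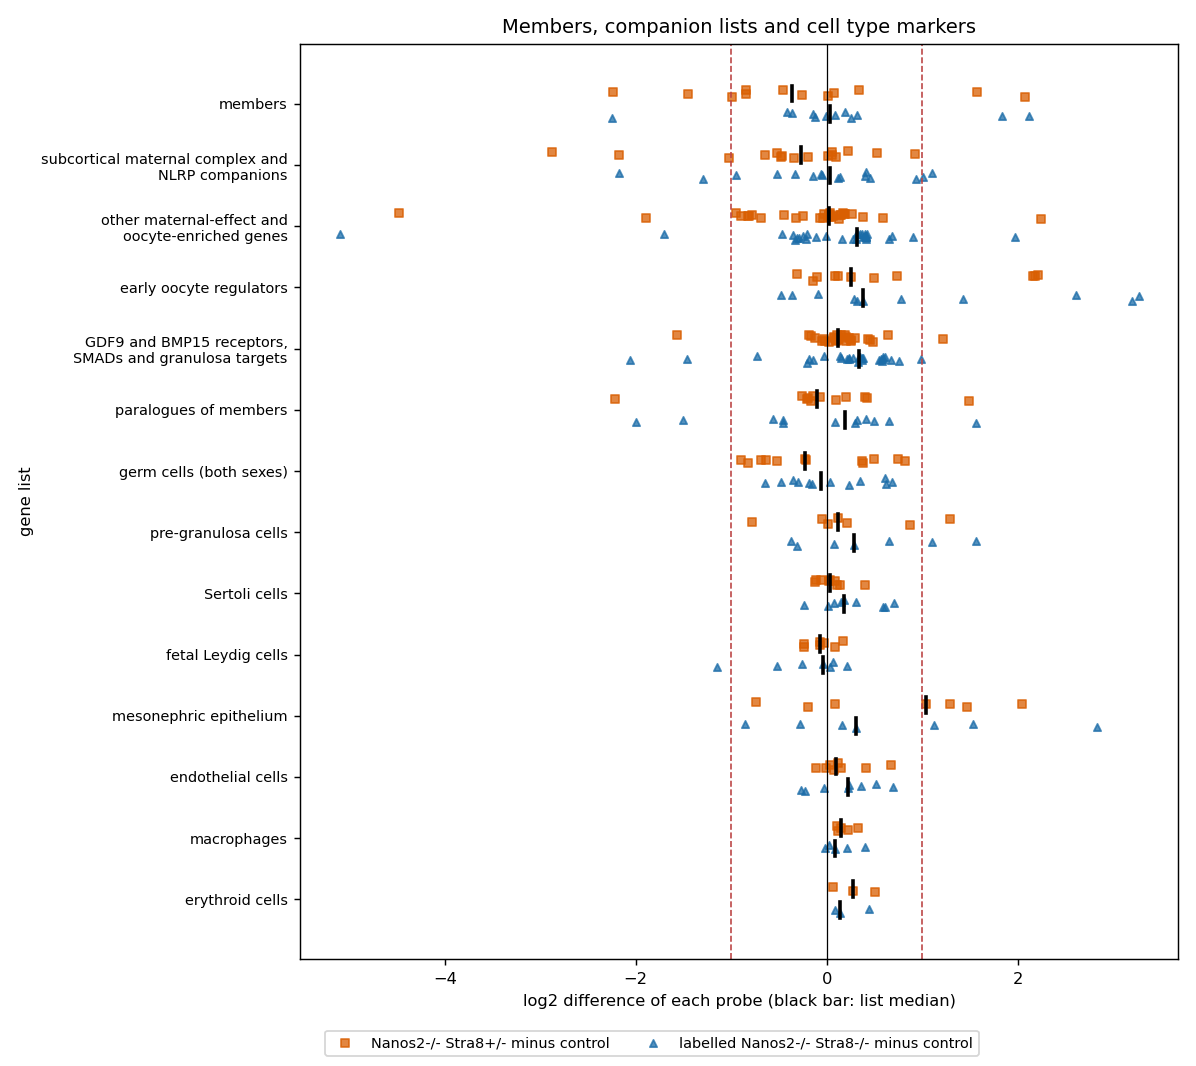
Log2 difference from the control column (horizontal axis) of every probe of the members, of the 5 companion lists and of the 8 marker lists (vertical axis), for the Nanos2-/- Stra8+/- column (squares) and the column labelled Nanos2-/- Stra8-/- (triangles). Black bars are list medians and broken lines mark 2-fold. Members and oocyte lists spread to both sides, early oocyte regulators extend to the right, and Sertoli cell markers stay within 2-fold.

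Markers of the cells in the gonad were set beside these values. With Nanos2 loss, 2.51% of all array probes were 2-fold higher and 3.09% lower, so 0 among few probes says little. Of 12 germ cell probes, 0 were past 2-fold in any comparison, with log2 differences from -0.89 to 0.82 and a median of -0.22 with Nanos2 loss. Their summed ratio was 12.6, 11.7 and 12.6 over the columns. Such a sum weights each probe by its unknown divisor, so it is no measure of cell content. Of 9 Sertoli cell probes 0 passed 2-fold, with a median of 0.04 and sums of 8.61, 8.93 and 10.4. Of 7 pre-granulosa cell probes, 1 (14.3%) was 2-fold higher with Nanos2 loss and 2 (28.6%) in the column labelled Nanos2-/- Stra8-/-. Of all array probes, 2.51% and 4.59% were as much higher. The pre-granulosa sums were 5.53, 6.55 and 7.45. Foxl2, the defining granulosa cell factor, had log2 differences of 0.02 and 0.65. Gng13 passed 2-fold in both comparisons with control, at 1.29 and 1.57, and Rspo1 in the second, at 0.87 and 1.11. Irx3 was lower, at -0.78 and -0.31, and 2 of the 7 probes lay below 0 in each of these comparisons.

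Of the 8 marker lists, that of the mesonephric epithelium had the most probes past 2-fold with Nanos2 loss. Of 7 probes, 4 (57.1%) were at least 2-fold higher with Nanos2 loss and 3 (42.9%) in the column labelled Nanos2-/- Stra8-/-. Of all array probes, 2.51% and 4.59% were as much higher. The sums of this list were 5.22, 8.52 and 8.45. The higher probes with Nanos2 loss were those of Ret, at a log2 difference of 2.05, both of Lhx1, at 1.29 and 1.47, and that of Cdh16, at 1.04. Cdh16 had -0.28 in the second comparison. Pax2 had 0.09 with Nanos2 loss, and the probes of Pax8 had -0.74 and -0.19. The 7 fetal Leydig cell, 8 endothelial, 5 macrophage and 3 erythroid probes had 0 at 2-fold with Nanos2 loss and medians of -0.07, 0.10, 0.15 and 0.28. In the column labelled Nanos2-/- Stra8-/- against control, 1 Leydig cell probe (14.3%) was 2-fold lower, against 4.39% of all array probes. It belonged to Cyp11a1, at a log2 difference of -1.15, while the other Cyp11a1 probes had 0.21 and 0.07. The endothelial, macrophage and erythroid lists had 0 past 2-fold there. The part of any of these cells in the members' differences was not tested. Because each probe has its own divisor, the ratios do not show which markers were absent.

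Padi6 had the largest difference among the members with Nanos2 loss in the values as deposited, while after quantile normalization it had -1.82 and Ooep 1.97, and the fold of Ooep may be a lower bound. The probes nearest to Padi6 were those of Pgk2, Pkd2l1, Tunar, Lypd11 and Tmem247. Nearness was the Euclidean distance over both log2 differences against control, that is over 3 columns, and ran from 0.02 to 0.10. Pgk2, the glycolytic enzyme gene of later male germ cells, had 1.97, 0.414 and 0.411. Pkd2l1, an ion channel gene, had 3.89, 0.808 and 0.825. All of these share the control column with Padi6.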

How the data were processed

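Total RNA of E14.5 male gonads was amplified to Cy3-labelled cRNA and hybridised to 1-colour Agilent arrays, per the labels' protocols. The submitters' processing notes name Agilent Feature Extraction 9.5. The values the authors deposited were taken as linear ratios, a unit inferred from the numbers themselves. Their normalization, per-probe divisor, scaling between arrays and way of combining replicates 1 and 2 were not given in the sources used here. Precision is limited by the number of arrays, and no background flags were used here.

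Of 41267 entries, 93 control spots were left out. The platform annotation gave 1 symbol for 32664 of 41174 array probes and several for 45, and 8465 were not listed. All 10 member symbols matched a RefSeq gene table by identifier. Values were taken to log2 with no pseudocount and subtracted between columns, probe by probe, and a difference of at least 1, or 2-fold, was counted. With 1 column a group there was no test. The counting step was checked on simulated data with large planted shifts, which says nothing of how reliable a 2-fold difference is here. The members and lists were chosen with earlier results of these data known. The named genes were all member probes, Nanos2 and Stra8, all early oocyte regulators, up to 4 genes of each other companion list by size of difference with Nanos2 loss, and 5 probes nearest to the leading member. Other named genes are markers or were picked after their values were seen. The alternatives were column medians, quantile normalization, a pseudocount of 0.1, a floor at the negative control, leaving out probes below 0.7, and 1 value per gene. Python 3.11.15, numpy 2.4.6, pandas 2.3.3 and matplotlib 3.10.9 were used.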

Additional observations from a re-analysis of the deposited data

How the results depend on the processing

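Across the alternatives, the counts of member probes past 2-fold against control stayed within 1.5 times, with 2 lower probes becoming 3 under either scaling as Zp3 A_52_P42762 passed 2-fold. In the third comparison, 2 higher probes became 1 with a pseudocount of 0.1, where Oog1 dropped to 0.96, with the mean over the probes of a gene, and with the probe of highest mean. No member past 2-fold changed sign under any scaling or low-value alternative. The median over member probes with Nanos2 loss, -0.36, was -0.41 with column medians and -0.41 with quantile normalization, -0.27 with the pseudocount, 0.0061 with values raised to the negative control, -0.84 without probes below 0.7, -0.24 as gene means and -0.13 by the probe of highest mean. In the second comparison, of the column labelled Nanos2-/- Stra8-/- with control, 0.04 became -0.048, -0.15, 0.030, 0.22, -0.0060 and 0.070 for the first 6 of these. In the third comparison, 0.32 became 0.29, 0.11, 0.25, 0.36, 0.27, 0.29 and 0.29. The sign of the member median is thus not settled in either comparison with control. The 0.0061 with Nanos2 loss is the difference of the negative control probe between those columns, to which Zp2 and Bmp15 were raised. It gives no direction of its own. Quantile normalization moved the median of all array probes from 0.19 to 0.03 in the second comparison and from 0.16 to 0.04 in the third comparison, so small shared shifts there depend on the scaling. With column medians, the 2 lattice and NLRP companion probes higher in the second comparison became 1, and the 2 lower became 3. No paired analysis was possible because each genotype has 1 column. Replicates could not be left out for the same reason. Signal over background is unknown and limits the readings of Zp2 and Bmp15. It also limits the folds of Ooep, Nlrp5, Oog4, Btg4, Sohlh2, Lhx8, Nlrp14, Nlrp9b, Padi4, Ptgs2, Bmpr2 and Kitl, each with a value below the negative control.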
